A study of Mus musculus with 96 samples.

Results

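Liver gene expression of 8 male 129S1/SvImJ mice on a calorie-restricted diet was compared with that of 24 restricted male mice of 3 other inbred strains, 8 each of C57BL6/J, C3H/HeJ and DBA/2J. The mice were chosen by strain and diet from the sample titles, and the 8 are 8 of the 96 arrays of the series, which has 1 mouse on each array. For each gene the gap is the mean log2 signal of 129S1/SvImJ minus the mean of the other 3 strain means, so that each strain has equal weight. A positive gap means a higher signal in 129S1/SvImJ. The same gap was taken between 8 129S1/SvImJ and 24 other mice on the control diet, and the difference of the 2 gaps was tested in the same model to find strain differences that depend on diet. All mice were males bought at 6 weeks of age and housed one to a cage. They ate 84 kcal a week of a purified AIN93M-based diet for 2 weeks, then stayed on the control diet or on 25% fewer calories from 8 until 22 weeks of age. CBA/J and B6C3F1/J mice of the series were not used here.

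Relatives of 129S1/SvImJ are the source of many embryonic stem cell lines, and C57BL6/J is the usual background for mutant mice. In liver, calorie restriction acts through fuel sensing, growth hormone and insulin signalling, the clock and nuclear receptors. PPAR-alpha is the fasting-responsive nuclear receptor that switches on fatty acid oxidation genes, SREBP2 controls cholesterol synthesis, and the pulse pattern of growth hormone sets which P450 enzymes are male-biased or female-biased in mouse liver. Inbred strains are homozygous at nearly every locus, so mice of a strain are close to genetically identical.

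Signals are log2 MAS5 intensities, and the mean array median of 6.65 serves as a guide to weak signal. Where a group mean lies below it, the size of a fold change is uncertain. The restricted 129S1/SvImJ arrays had medians of 6.64 to 6.99, against 6.21 to 8.295 in the other 24 restricted arrays (means 6.81 and 6.63, two-sided exact permutation p = 0.275, adjusted p = 0.582 over 3 measures). By strain the other medians were 6.208 to 6.483 in C57BL6/J, 6.306 to 6.636 in C3H/HeJ and 6.648 to 8.295 in DBA/2J. Every 129S1/SvImJ median (lowest 6.641) was thus above all those of C57BL6/J and C3H/HeJ, but not of DBA/2J. The permutation pooled the 3 other strains, so it does not test a difference from any 1 of them. One array, DBA/2J restricted replicate 6, stood apart. Its median was 8.295 and its 3' minus 5' log2 signal was 2.51 for Gapdh and 4.86 for beta-actin, against at most 0.03 and 1.52 in the other 23 arrays of those strains. It correlated with arrays of its own group at r as low as 0.601, against 0.896 or more within the 129S1/SvImJ group, across genes that are not independent replicates. Lead counts are given with and without it, and a share of the gene list counts is given without it as well. Without it the array medians averaged 6.81 in 129S1/SvImJ and 6.56 in the others (exact permutation p = 0.0178, adjusted p = 0.0534). With all arrays and the array median as a covariate, 1910 genes were called higher and 1201 lower in restricted 129S1/SvImJ. Without the covariate these counts were 1209 and 1125, and the cause of the change was not tested. Nnt served as a check of the C57BL6/J label, since C57BL6/J is known to carry a deletion in this mitochondrial transhydrogenase gene. It cannot check the labels of the other strains against each other. The mean of Nnt was 12.61 in 129S1/SvImJ, 11.25 in C57BL6/J, 12.74 in C3H/HeJ and 11.82 in DBA/2J on the restricted diet. Restricted C57BL6/J values were 10.14 to 11.63, and DBA/2J replicates 4 and 6 (11.23 and 10.31) lay within that range.

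On the restricted diet, 129S1/SvImJ livers differed from the other strains in 2334 of 13630 genes (17.1%) at an adjusted p under 0.05 in limma, 1209 higher (8.87%) and 1125 lower (8.25%). At least a 2-fold change was found in 265 higher genes (1.94%) and 282 lower genes (2.07%). The median gap over all genes was 0.09 and the median SE of a gap was 0.208. Without DBA/2J replicate 6 the counts were 1585 higher and 1438 lower. In 25 genes all 8 restricted 129S1/SvImJ values lay above all 24 others (0.183%), and in 30 genes all 8 lay below (0.220%). Without that array, which was left out here after seeing the data, the counts were 31 (0.227%) and 53 (0.389%). All 55 genes with no overlap also had a gap called in the same direction on the control diet.

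Among the genes with no overlap that were higher in 129S1/SvImJ, the widest gaps were in Gdpd3 and BC018473, both with weak signal in the other strains. Gdpd3, which encodes a glycerophosphodiester phosphodiesterase, had a lowest, median and highest signal of 10.62, 11.12 and 11.73 in restricted 129S1/SvImJ mice, against 2.19, 5.41 and 7.29 in the other 24. Every 129S1/SvImJ liver was above every other liver, with a wide space between the groups (57.4-fold, gap 5.84 ± 0.43 SE, adjusted p = 2.41e-17, limma). BC018473 had 7.24, 8.52 and 9.37 in 129S1/SvImJ, against 0.14, 2.36 and 7.06 in the others, where most values are weak signal (gap 5.63, adjusted p = 2.87e-13). Cox6b2, the testis-type isoform of a cytochrome c oxidase subunit, had 9.45, 10.12 and 11.40 in 129S1/SvImJ, against 2.58, 6.02 and 7.62 in the others (gap 4.55, adjusted p = 4.05e-12). Its gap on the control diet was 6.05. The neighbouring gene Kmt5c, a histone methyltransferase, had a called gap of 0.66.

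Sdc4 and Aqp11 had signal well above the array median in all strains. Sdc4, the heparan sulfate proteoglycan syndecan-4, had 14.12, 15.02 and 15.22 in restricted 129S1/SvImJ, against 11.62, 12.81 and 13.80 in the others, and was 4.35-fold higher (gap 2.12 ± 0.13 SE, adjusted p = 2.58e-21). A second probe set of Sdc4 had a gap of -1.46 (adjusted p = 8.23e-06), so the direction for this gene rests on the probe set read, and the gap was not called with the mean of its probe sets. Aqp11, an aquaporin of intracellular membranes, had 11.51, 11.85 and 12.12 in 129S1/SvImJ, against 9.27, 9.80 and 10.68 in the others, and was 3.84-fold higher (gap 1.94 ± 0.11 SE, adjusted p = 1.59e-22). All 8 values of 129S1/SvImJ were above the highest of the other strains. Its control gap was 1.41. Slc39a2, a zinc importer, had 7.57, 8.12 and 8.55 in 129S1/SvImJ, against 1.48, 5.69 and 7.51 in the others, mostly weak signal (gap 2.83, adjusted p = 0.000101). The remaining members of the 12 widest were H2-Bl, a class I histocompatibility gene (gap 2.59), Igsf23 (2.38), Gpatch11 (2.10, with a mean of 4.95 in the others, also weak signal), Map2k6, a kinase upstream of p38 (1.65), and Kdm2b, a histone demethylase (1.51). Map2k6 had a control gap of 0.80.

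Asns, the asparagine synthetase that is a textbook target of the amino acid response, was also higher with no overlap. Its signal was 9.0, 10.24 and 11.58 in restricted 129S1/SvImJ, against 6.48, 7.61 and 8.86 in the other strains, 6.53-fold higher (gap 2.71 ± 0.42 SE, adjusted p = 1.93e-06). The control gap was 2.27, and restriction moved Asns by 1.70 in 129S1/SvImJ, 0.59 in C57BL6/J, 1.57 in C3H/HeJ and 1.62 in DBA/2J on the log2 scale. A second probe set had a restricted gap of 3.57 (adjusted p = 4.68e-05). The neighbouring gene C1galt1 had a gap in the other direction, -1.29 (adjusted p = 8.56e-06). The promoter window of Asns is shown because it holds the 9 letters TGATGAAAC of the C/EBP-ATF response element, in capitals, starting 23 bases before the start site of the RefSeq model (GRCm38.p6, chr6:7693160-7693459, minus strand, 250 bases before to 50 after the start). These letters were searched on both strands and are found in 81 of 32851 such windows (0.247%). The match is a description of the reference, which is not the sequence of 129S1/SvImJ.
Asns: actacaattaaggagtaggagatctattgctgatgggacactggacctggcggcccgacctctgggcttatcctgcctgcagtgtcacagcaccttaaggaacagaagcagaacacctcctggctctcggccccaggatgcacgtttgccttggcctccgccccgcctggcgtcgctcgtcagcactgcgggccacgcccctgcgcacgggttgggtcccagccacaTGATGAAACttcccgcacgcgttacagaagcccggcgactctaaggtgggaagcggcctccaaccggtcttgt

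Of the genes with no overlap that were lower in 129S1/SvImJ, the gap with the smallest p was in Cyp2c37, a P450 enzyme that oxidises arachidonic acid. It had a lowest, median and highest signal of 6.57, 7.74 and 9.11 in restricted 129S1/SvImJ, against 12.41, 13.68 and 14.54 in the other 24. The 129S1/SvImJ livers were 51.9-fold lower, with a wide space between the groups (gap -5.70 ± 0.16 SE, adjusted p = 1.7e-39; control gap -5.23). Cyp2c50, a close relative encoded near it, had 13.42, 13.75 and 14.06 in 129S1/SvImJ, against 14.49, 15 and 16 in the others, again with no overlap (gap -1.37 ± 0.10 SE, adjusted p = 5.7e-17; control gap -0.85). Cyp2c39, another member of the family, went the other way at 12.28, 13.57 and 14.23 in 129S1/SvImJ, against 7.31, 11.32 and 12.84 in the others (gap 2.95, adjusted p = 1.1e-12), with some overlap. Genes of this family are similar enough in sequence that probe sets may read more than 1 of them.
The promoter windows of Cyp2c37 and Cyp2c50 are shown because the genes are near neighbours with alike starts and gaps of unlike size. Both are on the plus strand of GRCm38.p6, at chr19:39992174-39992473 and chr19:40089429-40089728, and 264 of 295 aligned bases are identical (89.5%), with 10 further bases in gaps. Capitals mark CAAAGTGCA, a match to the letters CAAAGTNCA bound by HNF4-type nuclear receptors, 63 and 61 bases before the start sites. The letters were searched on both strands and occur in 464 of 32851 windows (1.41%).
Cyp2c37: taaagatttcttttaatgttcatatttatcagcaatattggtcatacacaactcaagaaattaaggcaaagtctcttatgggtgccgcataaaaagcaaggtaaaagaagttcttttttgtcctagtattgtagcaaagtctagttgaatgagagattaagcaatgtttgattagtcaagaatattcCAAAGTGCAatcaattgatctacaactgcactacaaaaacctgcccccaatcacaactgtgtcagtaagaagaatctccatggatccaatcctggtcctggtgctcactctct
Cyp2c50: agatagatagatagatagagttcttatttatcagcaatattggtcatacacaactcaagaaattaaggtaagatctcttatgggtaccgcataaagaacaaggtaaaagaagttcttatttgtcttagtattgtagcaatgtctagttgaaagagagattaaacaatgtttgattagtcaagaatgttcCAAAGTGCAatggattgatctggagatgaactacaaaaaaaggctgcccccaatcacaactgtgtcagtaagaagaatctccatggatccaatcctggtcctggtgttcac

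Other genes in this direction belong to several functions. Dct, the dopachrome tautomerase of melanin synthesis, had 4.55, 6.30 and 6.84 in restricted 129S1/SvImJ, against 8.80, 11.43 and 13.65 in the others (gap -5.37 ± 0.28 SE, 41.2-fold lower, adjusted p = 2.98e-24). The other strains were themselves spread, with means of 9.66 in C57BL6/J, 11.46 in C3H/HeJ and 13.14 in DBA/2J. Tgds, the gene next to Dct, had a gap of -0.97 (adjusted p = 4.23e-10). Amacr, the racemase for branched fatty acids and bile acid intermediates, had 10.48, 10.77 and 11.02 in 129S1/SvImJ, against 12.09, 13.07 and 13.27 in the others, and was 4.71-fold lower (gap -2.24 ± 0.10 SE, adjusted p = 9.59e-29). The lowest of the others, 12.09, was DBA/2J replicate 6. Mme, the peptidase neprilysin, had 5.70, 6.5 and 7.44 in 129S1/SvImJ, against 7.46, 10.68 and 11.75 in the others (gap -3.61, adjusted p = 1.46e-12), so that the groups almost touched. Its second probe set had a gap of -3.13. Aqp4, a water channel, had 5.62, 6.36 and 7.76 in 129S1/SvImJ, against 8.32, 9.02 and 10 in the others (gap -2.55, adjusted p = 7.61e-14). Akr1c19, an aldo-keto reductase, had 10.53, 10.79 and 11.28 in 129S1/SvImJ, against 11.67, 12.78 and 13.42 in the others (gap -1.93, adjusted p = 7.95e-18), and its neighbour Akr1c13 had a gap of -0.39. The remaining genes of the 12 were Ankrd33b (-2.94), Gm4951 (-2.14), Fam47e (-2.08), B3galt1 (-2.01) and Plekhb2 (-1.94). A second probe set of Ankrd33b had a gap of 0.87 (adjusted p = 0.00284). Other B3galt1 probe sets had gaps of -1.10, which was called, and -0.59, -0.37 and -0.51, which were not.

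Cyp2b9, a female-biased P450 of mouse liver, completed the 12 lower genes. It had 5.40, 6.05 and 7.19 in restricted 129S1/SvImJ, against 9.11, 12.32 and 13.24 in the others, and was 55.0-fold lower (gap -5.78 ± 0.57 SE, adjusted p = 3.85e-12). Restriction moved it by 1.25 in 129S1/SvImJ, 5.13 in C57BL6/J, 1.32 in C3H/HeJ and 4.01 in DBA/2J. The control gap was -3.55, and the difference of the gaps was not called (-2.24, adjusted p = 0.242). On the control diet the high values were mostly those of C3H/HeJ, at 7.70 to 13.08. Control values were 6.26 to 9.09 in C57BL6/J, 1.74 to 9.94 in DBA/2J and 1.41 to 6.99 in 129S1/SvImJ. The restricted 129S1/SvImJ mean of 6.22 is weak signal, so the size of the fold change is uncertain.

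**Figure D1:**
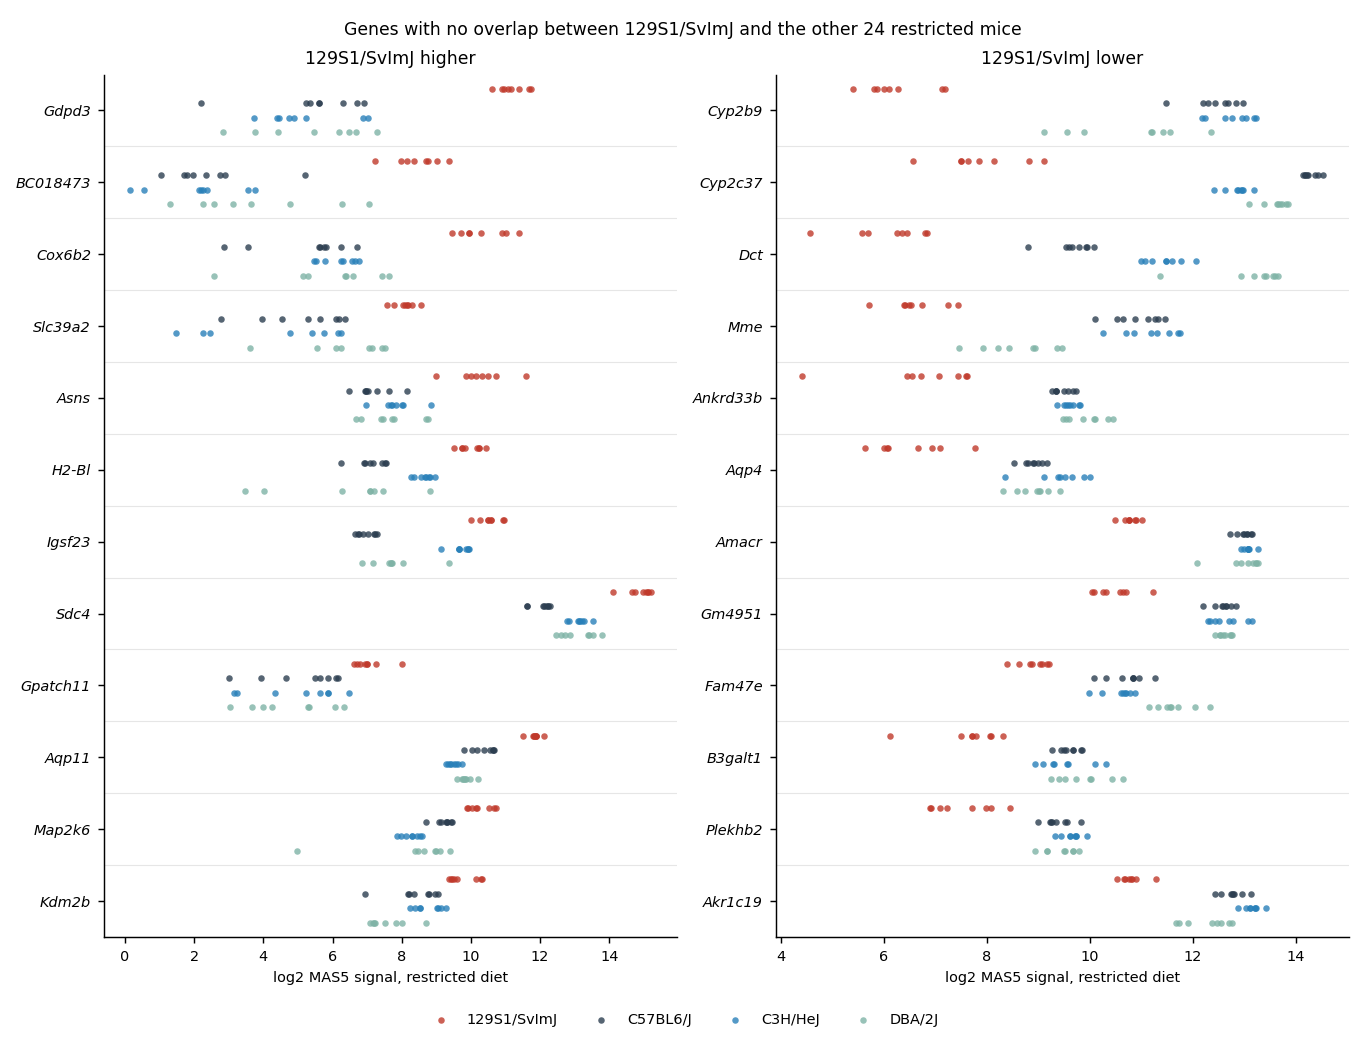
Log2 MAS5 signal on the restricted diet of the 12 widest higher genes (left) and the 12 widest lower genes (right) in which 129S1/SvImJ did not overlap the other 24 mice. Each point is 1 mouse, 8 per strain. For Cyp2c37 the 129S1/SvImJ points reach at most 9.11 while all other points start at 12.41, and in Dct the other 3 strains are themselves set apart from each other.

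Strain gaps on the 2 diets were related but not the same. On the control diet 2492 genes had a called gap (18.3%), 1126 higher (8.26%) and 1366 lower (10%) in 129S1/SvImJ. There were 1188 genes called in the same direction on both diets, 50.9% of the restricted calls and 47.7% of the control calls. Across all genes the restricted and control gaps had a Pearson r of 0.631, given as a description. A call on the restricted diet with none on the control diet was found in 1138 genes, but in 1120 of these the difference between the gaps was not itself called. The difference of gaps was called in 85 genes (0.624%), 40 positive (0.293%) and 45 negative (0.330%), and its median SE of 0.294 limits what could be called. At an unadjusted p under 0.05 there were 1282 genes. Of the 85, 51 had a called gap on the control diet alone, 18 on the restricted diet alone (0.132%), 8 had called gaps of opposite sign and 8 had called gaps of the same sign. Of the last 8 only Gm7969, named here after its values were seen, had the larger gap on the restricted diet (-3.52 against -1.21). Without DBA/2J replicate 6 the difference was called in 185 genes and 46 were restricted-only, among them 16 of the 18.

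**Figure D2:**
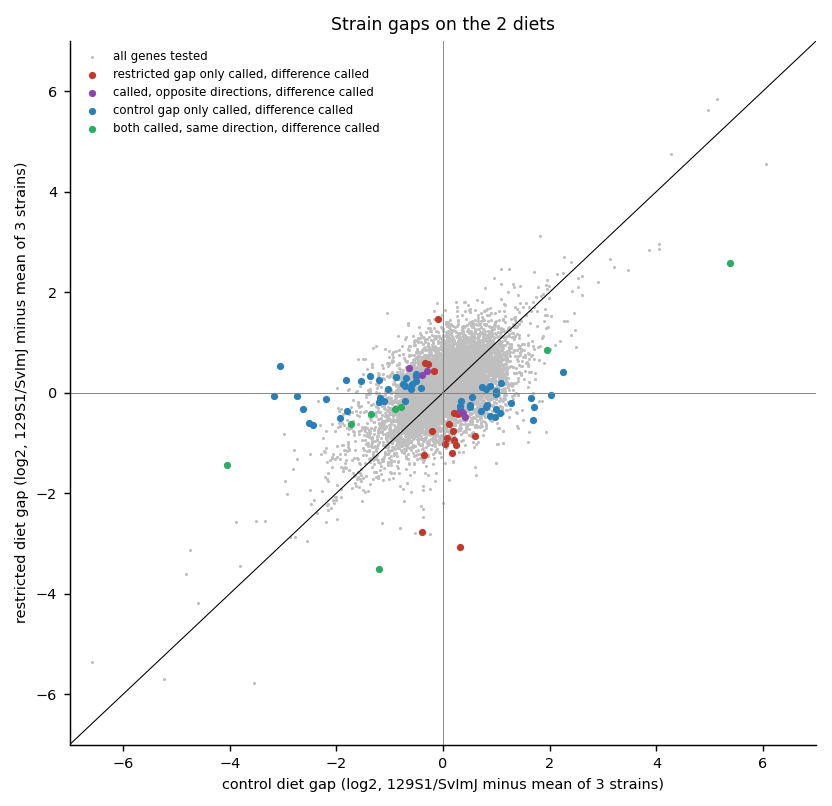
Gap on the restricted diet (vertical) against gap on the control diet (horizontal), both in log2 units as 129S1/SvImJ minus the mean of 3 strains, for all 13630 genes. Coloured points are the 85 genes whose difference of gaps was called, and the line marks equal gaps. The 18 restricted-only genes lie near 0 on the horizontal axis and away from 0 on the vertical one.

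The 18 genes whose strain difference was called only under restriction were 14 lower (0.103%) and 4 higher (0.0293%) in 129S1/SvImJ. A gene counted as restricted-only when the difference of gaps and the restricted gap were called, the control gap was not, and the restricted gap was the larger. In 14 of the 18 the diet moved 129S1/SvImJ more than any of the other strains. The gap had the same sign against each of the 3 strains in 17 genes, and was called against each in 9. A control gap that was not called does not show that the strains were equal on that diet. In 6 of the 18 the unadjusted 95% interval of the control gap left out 0.

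The gap change of Slc25a33, Gtf2e1 and Csrp3 kept its direction and call in every alternative processing, alone among the 14 restricted-only genes named by the rule, to which the alternatives were applied. Slc25a33, a mitochondrial carrier of pyrimidine nucleotides, had 9.93, 10.27 and 10.88 in restricted 129S1/SvImJ, against 10.53, 11.29 and 12.41 in the restricted others (gap -1.02 ± 0.15 SE, adjusted p = 6.84e-07). On the control diet it had 11.06, 11.43 and 11.87 in 129S1/SvImJ, against 10.53, 11.30 and 12.44 in the others (gap 0.04, 95% interval -0.27 to 0.35). Restriction moved it by -1.03 in 129S1/SvImJ and by 0.02, 0.02 and 0.06 in C57BL6/J, C3H/HeJ and DBA/2J, so that the gap change of -1.06 ± 0.22 (adjusted p = 0.00434) went with a lower level in 129S1/SvImJ and near-equal levels in the others. Gtf2e1, the large subunit of the general transcription factor TFIIE, had 7.26, 8.36 and 9.02 in restricted 129S1/SvImJ, against 8.17, 8.91 and 9.69 in the others (gap -0.77 ± 0.14 SE). Its control gap was 0.18, and the difference was -0.95 ± 0.20 (adjusted p = 0.00514). Restriction moved it by -0.73 in 129S1/SvImJ, and by 0.27, 0.02 and 0.35 in C57BL6/J, C3H/HeJ and DBA/2J. Csrp3, the muscle LIM protein, had 8.29, 9.02 and 9.90 in restricted 129S1/SvImJ, against 9.20, 10.12 and 10.62 in the others, with control values of 10.41, 11.30 and 11.61 against 9.85, 11.04 and 11.78. Signals were lower under restriction in every strain, by 2.13 in 129S1/SvImJ and by 1.25, 1.02 and 0.65 in C57BL6/J, C3H/HeJ and DBA/2J, and the gap went to -0.94 ± 0.17 on the restricted diet, against 0.21 on the control diet (difference -1.16 ± 0.24, adjusted p = 0.00652).

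Cyp2b13, a female-biased P450 and the neighbour of Cyp2b9, had the widest change of gap among the restricted-only genes. Its signal was 3.31, 4.44 and 6.98 in restricted 129S1/SvImJ, against 4.49, 7.58 and 12.88 in the others. The high values were those of C3H/HeJ, at 8.97, 10.75 and 12.88, and many of the rest were weak signal. The gap was -3.08 ± 0.55 SE on the restricted diet (adjusted p = 2.54e-05), against 0.32 on the control diet (95% interval -0.79 to 1.42), a difference of -3.40 ± 0.78 (adjusted p = 0.0167). Restriction moved it by 0.09 in 129S1/SvImJ, 2.52 in C57BL6/J, 6.26 in C3H/HeJ and 1.68 in DBA/2J, so the values that stood apart by diet were those of the other strains. Without the C3H/HeJ groups the difference was -2.01 and was not called. The 2 genes therefore had unlike patterns by strain, with the largest diet change of Cyp2b9 in C57BL6/J and that of Cyp2b13 in C3H/HeJ.
The promoter windows of Cyp2b9 and Cyp2b13 are shown because these neighbours, both on the plus strand of GRCm38.p6 at chr7:26173159-26173458 and chr7:26061245-26061544, are nearly identical there. Of 300 bases 298 are the same (99.3%), and capitals mark the differences T48C and C104T, with the Cyp2b9 base first, the position counted from 1 at the first base of the window, and the Cyp2b13 base last. They lie 203 and 147 bases before the start site. Probe sets of such close relatives may read both transcripts.
Cyp2b9: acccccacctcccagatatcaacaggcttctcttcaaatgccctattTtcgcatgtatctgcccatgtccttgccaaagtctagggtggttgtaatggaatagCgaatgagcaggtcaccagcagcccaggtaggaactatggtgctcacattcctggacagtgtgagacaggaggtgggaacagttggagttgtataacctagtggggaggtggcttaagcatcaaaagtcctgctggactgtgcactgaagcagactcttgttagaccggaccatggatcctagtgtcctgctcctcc
Cyp2b13: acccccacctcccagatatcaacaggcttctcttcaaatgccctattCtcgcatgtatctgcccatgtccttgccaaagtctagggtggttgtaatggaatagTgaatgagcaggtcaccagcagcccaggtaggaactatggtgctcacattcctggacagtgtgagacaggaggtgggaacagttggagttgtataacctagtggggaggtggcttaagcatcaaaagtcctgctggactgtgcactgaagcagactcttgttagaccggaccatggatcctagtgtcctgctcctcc

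The other restricted-only genes named by the rule and lower in 129S1/SvImJ were Ech1, Fabp2, Serpinb1a, Gfod2, Pdzk1ip1 and Wnt5b. Ech1, a dienoyl-CoA isomerase of mitochondria and peroxisomes, had 12.87, 13.31 and 13.54 in restricted 129S1/SvImJ, against 11.32, 14.28 and 15.10 in the others, where the lowest value is DBA/2J replicate 6. The gap was -0.91 on the restricted diet and 0.08 on the control diet (difference -0.99, adjusted p = 0.0487), and without that array the difference was -1.12. Restriction moved Ech1 by -1.49 in 129S1/SvImJ, -0.33 in C57BL6/J, -0.41 in C3H/HeJ and -0.76 in DBA/2J. Fabp2, the intestinal-type fatty acid-binding protein, had 12.14, 12.39 and 12.90 in 129S1/SvImJ, against 12.89, 13.56 and 15.15 in the others, so that only the highest 129S1/SvImJ value reached the others' range (gap -1.24 ± 0.16 SE, adjusted p = 1.39e-08). Its control gap was -0.35 (adjusted p = 0.124) and the difference -0.88 (adjusted p = 0.044). Serpinb1a, an inhibitor of neutrophil proteases, had 3.27, 4.47 and 6.68 in 129S1/SvImJ, against 4.41, 7.91 and 9.22 in the others (gap -2.76, control gap -0.39, difference -2.37, adjusted p = 0.0424). Most of its 129S1/SvImJ values are weak signal, and its second probe set had a gap of -1.54. The difference of gaps of that probe set was -1.8, not called (adjusted p = 0.347). Gfod2 had 5.71, 7.2 and 8.45 in 129S1/SvImJ, against 7.17, 8.30 and 9.31 in the others, and its gap of -1.19 compares with 0.17 on the control diet (difference -1.36, adjusted p = 0.0148). Pdzk1ip1, a membrane-associated protein of epithelia, moved with restriction by 0.66 in 129S1/SvImJ, 1.40 in C57BL6/J, 2.33 in C3H/HeJ and 2.09 in DBA/2J, with a difference of gaps of -1.28 (adjusted p = 0.0457). Its second probe set had a called restricted gap of -1.1 (adjusted p = 0.00181). The difference of gaps of that probe set was only -0.33 and was not called (adjusted p = 0.882). Wnt5b, a secreted Wnt ligand, had a gap of -0.85 on the restricted diet and 0.60 on the control diet (difference -1.45, adjusted p = 0.0148), but its second probe set had a restricted gap of -0.19 (adjusted p = 0.747). The difference of gaps of that probe set was 0.64, in the other direction and not called (adjusted p = 0.788). Of 15 alternatives, the call of the gap change was lost in 9 for Pdzk1ip1, 7 for Ech1, 6 for Fabp2, 5 for Serpinb1a and 1 each for Gfod2 and Wnt5b. Leaving out the C3H/HeJ groups ended it in all of these but Wnt5b.

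The rule for naming took the 10 largest changes in each direction, and the other 4 genes of the 18 are named after their values were seen. They were Cyp2c54, a relative of Cyp2c37 and Cyp2c50 encoded between them (gap -0.63, control gap 0.11), Esyt2, an endoplasmic reticulum tether (gap -0.77), Ei24 (gap -0.43) and Tars, the threonyl-tRNA synthetase (gap -0.41). Without DBA/2J replicate 6, Ei24 and Wnt5b had called gaps of opposite sign on the 2 diets and so left the restricted-only set.

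The 4 restricted-only genes higher in 129S1/SvImJ were Acvr2b, Tap1, Bco1 and Stard5. Acvr2b, a receptor of activins and myostatin, had 7.90, 9.04 and 9.58 in restricted 129S1/SvImJ, against 4.30, 7.70 and 9.03 in the others (gap 1.46, control gap -0.10, difference 1.55 ± 0.37 SE, adjusted p = 0.0231). It moved by 1.64 with restriction in 129S1/SvImJ, 0.82 in C57BL6/J, 0.10 in C3H/HeJ and -0.66 in DBA/2J. A second Acvr2b probe set had a restricted gap of 1.23 that was not called (adjusted p = 0.0768). Its difference of gaps of 0.65 was not called either (adjusted p = 0.872). Tap1, which pumps peptides to class I molecules, had 8.60, 9.20 and 9.71 in 129S1/SvImJ, against 7.84, 8.52 and 9.07 in the others (gap 0.59, control gap -0.34, difference 0.93 ± 0.21 SE, adjusted p = 0.0148). Its diet change was 0.45 in 129S1/SvImJ, -0.83 in C57BL6/J, 0.06 in C3H/HeJ and -0.64 in DBA/2J. Bco1, which cleaves beta-carotene to retinal, had 8.65, 9.05 and 9.60 in 129S1/SvImJ, against 7.19, 8.75 and 9.47 in the others, with wide overlap (gap 0.56, control gap -0.28, difference 0.85, adjusted p = 0.0222). Restriction moved Bco1 by 0.86 in 129S1/SvImJ and by 0.16, -0.12 and -0.02 in C57BL6/J, C3H/HeJ and DBA/2J. Stard5, a sterol-binding START protein, had 12.22, 12.56 and 12.75 in 129S1/SvImJ, against 10.84, 12.20 and 12.60 in the others (gap 0.43, control gap -0.17, difference 0.59, adjusted p = 0.0222). Other probe sets of Stard5 had restricted gaps of 0.35, called, and 0.52, not called (adjusted p = 0.0399 and 0.123). Their differences of gaps, 0.34 and 0.68, were not called (adjusted p = 0.599 and 0.566). The call of the gap change was lost without the C3H/HeJ groups for Acvr2b and Bco1 and without the C57BL6/J groups for Tap1. It was lost with the mean of probe sets for Acvr2b and Stard5.

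**Figure D3:**
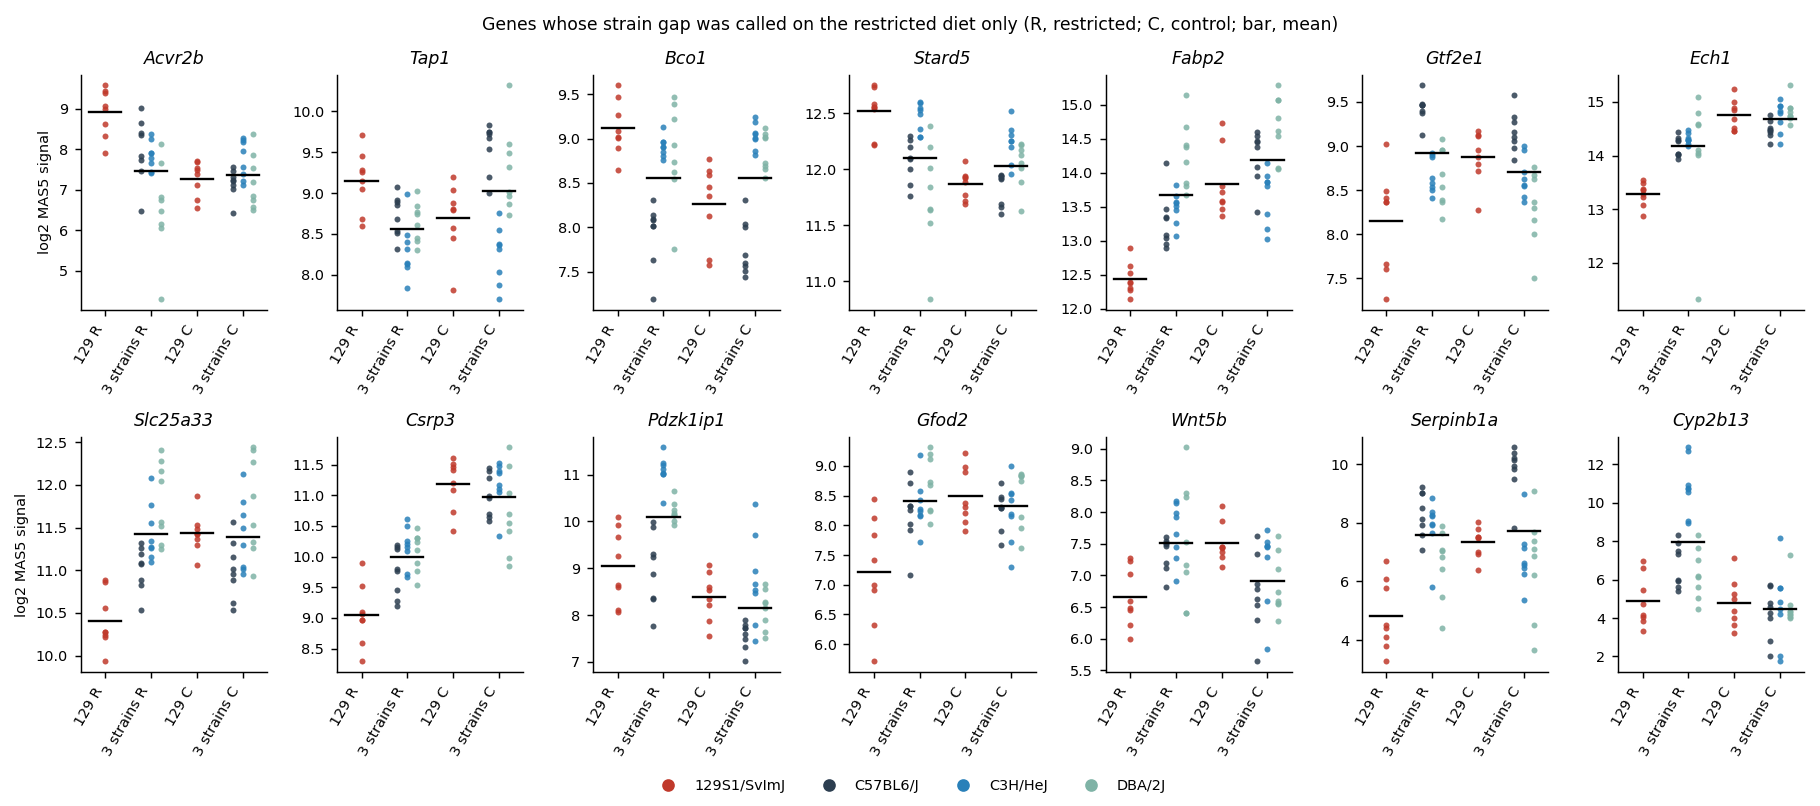
Log2 MAS5 signal of the 14 restricted-only genes named by the rule, in 4 columns for each gene: 129S1/SvImJ restricted, the 3 other strains restricted, 129S1/SvImJ control and the 3 other strains control. Each point is 1 mouse and the bars are means. Slc25a33 is low in restricted 129S1/SvImJ mice, at 9.93 to 10.88, while in Cyp2b13 the restricted C3H/HeJ points stand highest.

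Gaps called in opposite directions on the 2 diets were found in 8 genes, all of modest size. The 5 with the smallest p were Gpd1l, C8a, Tef, Abca8a and Adck5. Gpd1l, a glycerol-3-phosphate dehydrogenase-like enzyme, had a gap of 0.34 on the restricted diet and -0.40 on the control diet (difference 0.75, adjusted p = 0.000349). The restricted gap was 1.11 against DBA/2J, 0.01 against C57BL6/J and -0.09 against C3H/HeJ, and it became -0.04 without the DBA/2J groups. C8a, a chain of complement component C8, had gaps of 0.33 and -0.50 on the restricted and control diets (difference 0.83, adjusted p = 0.00263). Its restricted gap was 0.94 against C57BL6/J, 0.06 against C3H/HeJ and 0.00 against DBA/2J, and it was 0.03 (adjusted p = 0.92) without the C57BL6/J groups. The restricted call of C8a was lost in 5 of 16 alternatives. Tef, a clock-controlled transcription factor, had gaps of 0.43 and -0.31 in the same order of diets (difference 0.74, adjusted p = 0.00741). The restricted call of Tef was lost without the DBA/2J groups, and that of Abca8a without the C57BL6/J or the DBA/2J groups. Abca8a, a lipid transporter, had gaps of 0.50 and -0.63 (difference 1.13, adjusted p = 0.00964), and Adck5 had -0.49 and 0.41 (difference -0.90, adjusted p = 0.0148). The call of the gap change itself was lost for Tef with the mean of probe sets and without the C3H/HeJ groups. For Abca8a it was lost without the C3H/HeJ or the DBA/2J groups, and for Adck5 without the C57BL6/J groups. With all 12 groups in the fit it was lost for Adck5, Gpd1l and C8a. Other probe sets of Tef had differences of 0.45 and 1.16, not called (adjusted p = 0.63 and 0.457). The other 3 genes were Pctp, a phosphatidylcholine transfer protein, Elovl5, a fatty acid elongase, and Tlcd2, named after their values were seen.

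Without DBA/2J replicate 6 there were also 30 restricted-only genes beside the 16 that were shared, and those mentioned here were chosen after their values were seen. Lower genes with a larger change were G6pc, the glucose-releasing phosphatase (difference -1.43), Hacl1, a lyase of peroxisomal alpha-oxidation (-1.36), Il16 (-1.20), Mtnr1a, a melatonin receptor (-1.08), Ces1e, a carboxylesterase (-0.73), Cyp3a11, a major drug-metabolising P450 (-0.66), and Acsl5, an acyl-CoA synthetase (-0.63). Higher genes included Slc2a8, a glucose transporter (0.79), Pfkl, liver phosphofructokinase (0.67), Tomm40, the pore of the mitochondrial import complex (0.59), and F11, coagulation factor XI (0.59). With all arrays, the restricted gap was called in G6pc (-0.85, adjusted p = 0.0192) and Cyp3a11 (-0.96, adjusted p = 9.52e-08), while their differences of gaps were not (adjusted p = 0.0794 and 0.0717).

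Among genes whose gap was smaller under restriction were several of fatty acid oxidation. Of 27 tested genes of fatty acid oxidation and other PPAR-alpha targets, 3 were higher and 2 lower in 129S1/SvImJ on the restricted diet. The called share of 18.5% was near the 17.1% of all genes, of which 8.87% were higher and 8.25% lower. On the control diet 17 of the 27 were higher and 1 lower. Of all genes 8.26% were higher on that diet, and 18.3% were called in either direction. The median gap of the list was 0.18 under restriction and 0.56 on the control diet, against 0.09 and 0.043 for all genes. The difference of gaps was below 0 in 23 of the 27, against 44.0% of all genes, and it was called in Ehhadh, Cyp4a14, Acot1 and Acaa1b. Without DBA/2J replicate 6 it was called in 7, with Acadvl, Hadh and Hadhb added, and the counts by diet were 5 higher and 2 lower under restriction, against 21 higher and 1 lower. Ehhadh, the peroxisomal bifunctional enzyme, had a gap of -0.28 on the restricted diet (adjusted p = 0.282) and 1.71 on the control diet (adjusted p = 9.73e-12), a difference of -1.98 (adjusted p = 6.13e-07). Restriction moved Ehhadh by -2.56 in 129S1/SvImJ, -0.75 in C57BL6/J, 0.10 in C3H/HeJ and -1.08 in DBA/2J. Cyp4a14, a fatty acid omega-hydroxylase, had gaps of -0.06 and 2.03 on the restricted and control diets. Acot1, an acyl-CoA thioesterase, had -0.54 and 1.69, and Acaa1b, a peroxisomal thiolase, had 0.03 and 0.99. Hepatocyte markers had a median gap of 0.14 on the restricted diet and 0.40 on the control diet, with 0 and 5 of 9 higher (0 and 8 without DBA/2J replicate 6), and a median difference of gaps of -0.40. The part of this in the oxidation gene gaps was not tested. The median change of the list with restriction was -0.58 in 129S1/SvImJ, -0.43 in C57BL6/J, -0.13 in C3H/HeJ and -0.39 in DBA/2J. Called restricted gaps were those of Acadm, the medium-chain acyl-CoA dehydrogenase (0.77, adjusted p = 1.05e-08, with no overlap), Angptl4 (0.54), Acaa1a (0.42), the fatty acid transporter Cd36 (-0.77) and Pdk4, a kinase that turns off pyruvate dehydrogenase (-1.18). The calls of Angptl4 and Pdk4 were lost without the C3H/HeJ groups and that of Cd36 without the C57BL6/J groups.

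**Figure D4:**
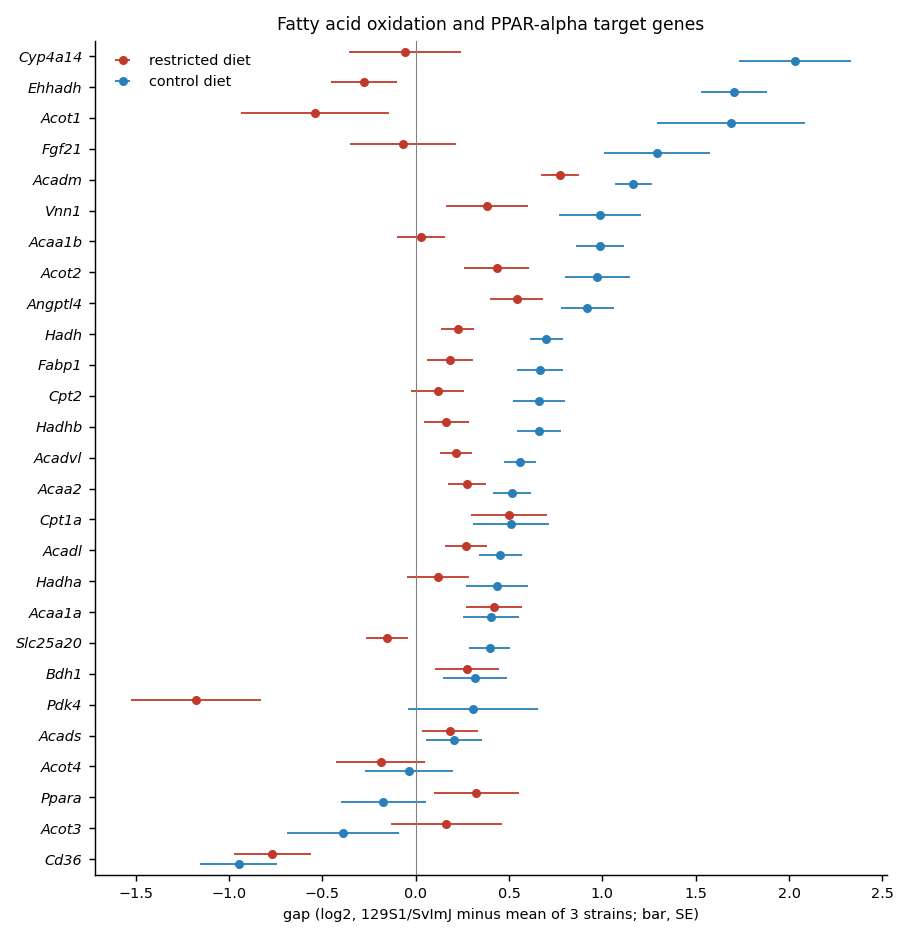
Gap in log2 units (129S1/SvImJ minus the mean of 3 strains, bars are SE) of the 27 fatty acid oxidation and PPAR-alpha target genes on the restricted and control diets. Most control points lie right of 0, while restricted points gather nearer to 0, with Ehhadh moving by -1.98.

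Other genes had a gap on the control diet that was not called under restriction, all with a called difference. Those mentioned here are some of the 51 genes of that kind and were chosen after their values were seen. Etnppl, a phosphoethanolamine lyase, had a gap of 0.22 on the restricted diet and -1.54 on the control diet (difference 1.77, adjusted p = 6.67e-05). Slc22a7, an organic anion transporter, had -0.37 and -1.81 (difference 1.43, adjusted p = 0.000935), and Csad, which makes taurine precursors, had -0.11 and 1.65 (difference -1.76, adjusted p = 0.00151). The lipid droplet coat gene Plin2 (-0.25 and 0.82) and the insulin-repressed Igfbp1 (-0.49 and 0.98) had gaps of the same signs as Csad. Their diet changes were unlike. Restriction moved Csad by -3.35 in 129S1/SvImJ, -1.69 in C57BL6/J, -1.43 in C3H/HeJ and -1.66 in DBA/2J. It moved Igfbp1 by 0.28, 2.18, 1.37 and 1.70 in the same order. Sult1e1, the oestrogen sulfotransferase, kept a called gap on both diets, 2.58 and 5.37 (difference -2.79, adjusted p = 0.0371).

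Interferon-stimulated genes were lower in 129S1/SvImJ or not called. Of 25 tested interferon-stimulated genes, 13 were lower and 0 higher on the restricted diet (median gap -0.73, percent of all genes lower 8.25%), and 17 were lower on the control diet (median -1.29). The restricted count was again 13 without DBA/2J replicate 6. The difference of gaps was called in 0 of them (2 without DBA/2J replicate 6, Ifih1 and Zbp1). The lowest p was that of Irf7, the transcription factor that amplifies interferon production (-1.14, adjusted p = 8.54e-08), and Rsad2, an antiviral enzyme, followed (-1.58, adjusted p = 7.45e-06). Other probe sets of Rsad2 had gaps of -0.23 and -0.51, not called (adjusted p = 0.536 and 0.285). Xaf1 had a gap of -1.28, but another of its probe sets had 2.18 (adjusted p = 4.86e-08), and the mean of its probe sets gave 0.45. Among 9 interferon-gamma-inducible GTPases, 2 were lower on the restricted diet, Gbp8 (-1.17) and Irgm2 (-0.68), both not called without the C3H/HeJ groups, and 9 on the control diet (3 and 9 without DBA/2J replicate 6). The list had a median gap of -0.35 under restriction and -1.05 on the control diet, and its median diet change was -0.36 in 129S1/SvImJ, -1.26 in C57BL6/J, -0.27 in C3H/HeJ and -0.83 in DBA/2J. In 18 genes of class I and antigen presentation, 4 were higher and 3 lower, against 5 and 5 on the control diet (7 higher and 3 lower under restriction without DBA/2J replicate 6). Of all genes 8.87% were higher and 8.25% lower under restriction, and 18.3% were called on the control diet. The difference of gaps was called in 3 of the 18, Tap1, Psmb8 (0.94, adjusted p = 0.0177) and Psmb9 (1.09, adjusted p = 0.0304). The control gaps of Psmb8 and Psmb9 were -1.36 and -1.72, wider than under restriction. On the restricted diet H2-K1 (1.69), H2-D1 (1.71), H2-Q10 (0.63) and Tap1 were higher. H2-M3 (-0.55) and the immunoproteasome subunits Psmb9 (-0.63) and Psmb8 (-0.42) were lower. A further 4 probe sets of H2-D1 had gaps of -1.52 to -3.29, and these class I genes are polymorphic and alike between loci, so their direction is uncertain. The PYHIN list held 3 tested genes and no call, with 1 higher gene without that array.

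Macrophage markers were lower in 129S1/SvImJ or not called. Of 12 markers of Kupffer cells and macrophages, 5 were lower and 0 higher in restricted 129S1/SvImJ (median gap -0.56, against 8.25% of all genes lower), namely Csf1r (-0.56), Lyz2 (-1.0), Vsig4 (-0.66), Marco (-1.97) and C1qa (-0.88), and 7 were lower on the control diet. Csf1r was not called with the mean of its probe sets, as its other probe sets had gaps of -0.09 and 0.05. The 5 restricted calls became neither more nor fewer without DBA/2J replicate 6. The summed linear signal of the 12 was 10209 to 27156 with a median of 12936 in 129S1/SvImJ, against medians of 16924 in C57BL6/J, 19511 in C3H/HeJ and 23731 in DBA/2J, whose ranges were 11598 to 35525, 14671 to 62051 and 19653 to 34117. Marco alone had a 129S1/SvImJ mean below the array median, and no marker was at 0. In whole liver, fewer cells of a type and less RNA per cell cannot be told apart, and the part of these cells in the immune gene gaps was not tested. Of 9 hepatocyte markers, 0 had a called gap on the restricted diet (median 0.14), and none had a mean below the array median in any restricted group, as in liver tissue. Markers of endothelial cells gave 1 higher (Stab2, 0.60) and 1 lower (Clec4g, -0.67) of 11. Stellate cell and fibroblast markers gave 1 higher, Reln (0.38, and -0.15 with the mean of its probe sets), and 3 lower of 12, Col3a1 (-0.96), Colec11 (-0.39) and Dcn (-0.40). Of 5 neutrophil markers 1 was lower, S100a9 (-1.61), and of 4 pancreatic acinar markers 1 was higher, Cela2a (1.92). Lymphocyte (8), cholangiocyte (5) and erythroid (2) markers had no called gap. With DBA/2J replicate 6 left out, 1 lymphocyte marker and 1 neutrophil marker were higher and 1 acinar marker was lower.

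Genes of cholesterol synthesis and uptake were lower or not called. Of 20 tested, 8 were lower and 0 higher on the restricted diet (11 lower without DBA/2J replicate 6), with a median gap of -0.42, against 8.25% of all genes lower and 8.87% higher, and 6 were lower and 1 higher on the control diet (median -0.36). Cyp51, the lanosterol demethylase, had a gap of -1.70 (adjusted p = 6.93e-06), Tm7sf2, a sterol reductase, -0.62 (adjusted p = 0.00106), and Pmvk, phosphomevalonate kinase, -0.97 (adjusted p = 0.00119). Hmgcs1, Idi1, Fdft1, Sc5d and the SREBP regulator Insig1 were the other calls, at -0.92, -0.98, -0.42, -0.57 and -0.58. The calls of Pmvk and Tm7sf2 were lost without the C3H/HeJ groups. In fatty acid and triglyceride synthesis, 3 of 23 were lower, Elovl6 (-1.85, adjusted p = 7.43e-06), Acly (-0.79) and Elovl5 (-0.35), and 2 were higher, the lipin Lpin1 (1.33) and the triglyceride synthase Dgat2 (0.60), a share near the 17.1% of all genes. Lpin1 was not called without the DBA/2J groups. Of 12 lipid droplet genes 3 were higher, Hsd17b13 (2.07, adjusted p = 7.88e-21), Plin3 (0.72) and the lipase Pnpla2 (0.83, not called without the DBA/2J groups). Hsd17b13 had a mean of 8.75 in C3H/HeJ, the lowest of the strains. Its gap was called in all 16 alternatives but ranged from 0.49 to 2.94, and a second probe set had -0.93, not called (adjusted p = 0.0861). Among 23 apolipoprotein and lipoprotein genes, 6 were higher, including Apoa4 (0.96), Apom (0.73) and the HDL receptor Scarb1 (1.10), and 2 lower, Pltp (-1.31) and Apoa5 (-0.35). On the control diet that list had 11 higher and 1 lower. It had 8 higher and 4 lower under restriction without DBA/2J replicate 6.

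Bile acid and drug metabolism genes were split between directions. Of 19 bile acid genes 5 were higher and 2 lower on the restricted diet, where 8.87% of all genes were higher, 8.25% lower and 17.1% called. Cyp7a1, which opens the classical route from cholesterol to bile acids, was higher (1.26, adjusted p = 3.26e-05), as was Cyp7b1 of the alternative pathway (1.08, adjusted p = 7.94e-05), while Amacr and the canalicular pump Abcc2 (-0.98) were lower. Of 27 P450 enzymes and xenobiotic receptors 7 were higher and 6 lower, with Cyp3a13 (1.31) and the receptor Nr1i3 (0.93) higher and Cyp3a11 and Cyp2c55 (-1.34) lower. Among 14 male-biased genes 5 were higher, Cyp4a12a (1.15), Cyp7b1, Slco1a1 (0.69), Susd4 (0.67) and Cyp2d9 (0.52), and 1 lower, Serpina12 (-3.12, adjusted p = 1.99e-10), with 1 higher and 3 lower on the control diet. The medians were 0.53 and -0.19. Of 14 female-biased genes 4 were lower, Cyp2b9, Cyp2b13, the transporter Slc22a27 (-2.69) and Fmo2 (-1.22), and 2 higher, Cyp17a1 (2.86) and Cyp39a1 (0.64), with 4 and 2 on the control diet. Of 16 glucuronosyl- and sulfotransferases 3 were higher and 2 lower, of 18 glutathione transferases 2 and 2, and of 13 organic ion transporters 2 and 1. Aldehyde and aldo-keto enzymes gave 1 higher and 3 lower of 20, near the share of all genes as in the glutathione transferases, and carboxylesterases 1 higher (Ces1f, 0.41) and 2 lower of 10, with Ces1g at -1.60 (adjusted p = 7.55e-13).

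In the circadian list, 5 of 17 genes were higher and 3 lower on the restricted diet, against 2 and 2 on the control diet, with medians of 0.43 and 0.06. Of all genes 8.87% were higher and 8.25% lower, and the difference of gaps was called in 1 member of the list, Tef. That call was lost with the mean of probe sets and without the C3H/HeJ groups. The clock output factors Dbp (1.3, adjusted p = 9.56e-06), Hlf (0.91) and Tef were higher together with the repressors Ciart (2.13) and Nr1d1 (1.75), while Per3 (-1.32), Nfil3 (-1.26) and Clock (-0.91) were lower. A second probe set of Per3 had 0.86, and Per3 was not called with the mean of its probe sets. For the hour of tissue collection, no value was given in the labels. In the growth hormone and IGF1 list, 3 of 14 were higher, Igfbp3 (1.09), Igfbp4 (0.49) and Igf1 (0.54), and 2 lower, Socs2, a feedback inhibitor of growth hormone signalling (-1.96, adjusted p = 5.67e-08), and Onecut1 (-1.95). A second Onecut1 probe set had a gap of -0.33 that was not called (adjusted p = 0.54). Insulin and FOXO signalling gave 3 higher, with Foxo1 at 1.24 (adjusted p = 9.54e-05), and 1 lower, Ppp1r3g (-2.15), of 17. Other probe sets of Foxo1 had smaller gaps of 0.42 and 0.36 that were not called (adjusted p = 0.15 and 0.283). Gluconeogenesis gave 2 higher and 1 lower of 13, glycolysis and glucose uptake 2 higher of 8, and glycogen metabolism 1 and 1 of 11 (1 and 2 without DBA/2J replicate 6).

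Heat shock proteins were lower wherever they were called, 6 of 18 on each diet, against 8.25% of all genes lower under restriction (8 on the restricted diet without DBA/2J replicate 6). They were Hspb1 (-1.09), Chordc1 (-0.99), Hsph1 (-0.73), Stip1 (-0.45) and the near-identical Hspa1a (-1.29) and Hspa1b (-1.48), which probe sets may not separate. The call of Hspa1b was lost without the C3H/HeJ groups. Of 24 endoplasmic reticulum chaperone and stress genes, 5 were lower, led by the stress sensor Atf6 (-0.74, adjusted p = 6.45e-08) and the disulfide isomerase Pdia4 (-1.26), and 2 higher, Asns and Herpud1 (0.77), with 10 lower and 1 higher on the control diet. Under restriction 9 were lower and 3 higher when DBA/2J replicate 6 was left out. Other probe sets of Atf6 had gaps of -0.09 and -0.26, not called (adjusted p = 0.792 and 0.343). Of 21 iron and haem genes 5 were lower and 3 higher, with Hamp2, a hepcidin of mice, at -1.65 (adjusted p = 1.75e-12; not called with the mean of its probe sets), and the iron importer Slc11a2 at -0.97, which became 0.07 with the mean of its probe sets. Acute phase proteins gave 3 higher and 1 lower of 24, against 10 higher and 2 lower on the control diet (3 and 2 under restriction without DBA/2J replicate 6). Complement and coagulation gave 2 higher and 4 lower of 31, with complement C5 gene Hc at 0.93 (adjusted p = 6.57e-06; 0.22 and not called without the DBA/2J groups) and the lectins Mbl2 (-0.57) and Mbl1 (-0.58) lower. Serpins gave 4 higher and 2 lower of 12. NAD and sirtuin genes gave 4 higher and 1 lower of 19 (4 and 2 without DBA/2J replicate 6), with Aox3 at 1.61, whose mean was lowest in DBA/2J (9.02), and Nampt, the salvage enzyme for NAD, at -0.79. The other Nampt probe sets had gaps of 0.24 and 0.02, and the mean of its probe sets gave -0.18, not called. Glucocorticoid targets and metallothioneins gave 2 higher and 2 lower of 16, and antioxidant NRF2 targets 3 higher of 22. Of all genes 17.1% were called on the restricted diet. The called share was 16.7% for acute phase proteins, 19.4% for complement and coagulation and 13.6% for NRF2 targets. It was 25% for glucocorticoid targets and metallothioneins and 26.3% for NAD and sirtuin genes. Iron and haem genes had 38.1% and serpins 50%. On the control diet 18.3% of all genes were called, and 8.26% were higher. When DBA/2J replicate 6 was left out, complement and coagulation gave 5 higher and 5 lower, serpins 7 higher and 2 lower, and NRF2 targets 5 higher and 1 lower.

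Lists of general cell functions had called shares at or below the 17.1% of all genes in most cases. Of 31 oxidative phosphorylation genes 3 were higher and 1 lower (median 0.14), of 27 proteasome subunits 1 and 3, against 7 higher on the control diet, of 13 ribosomal proteins 0 and 1 (Rps6, -0.88, not called without the C57BL6/J groups), and of 16 cell cycle genes 0 and 1 (Mcm6, -2.57). Amino acid breakdown and urea cycle genes gave 2 higher of 23, and one-carbon, methionine and serine genes 3 higher of 19, with the mitochondrial Shmt2 at 0.82 (adjusted p = 1.67e-06). Pericentral hepatocyte genes gave 4 higher of 12 and periportal ones 2 higher of 10. Of 3 major urinary protein genes 1 was higher, Mup3 (0.45). A total of 4 ribosomal protein genes were lower, 5 one-carbon genes higher and 2 amino acid genes lower without DBA/2J replicate 6.

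**Figure D5:**
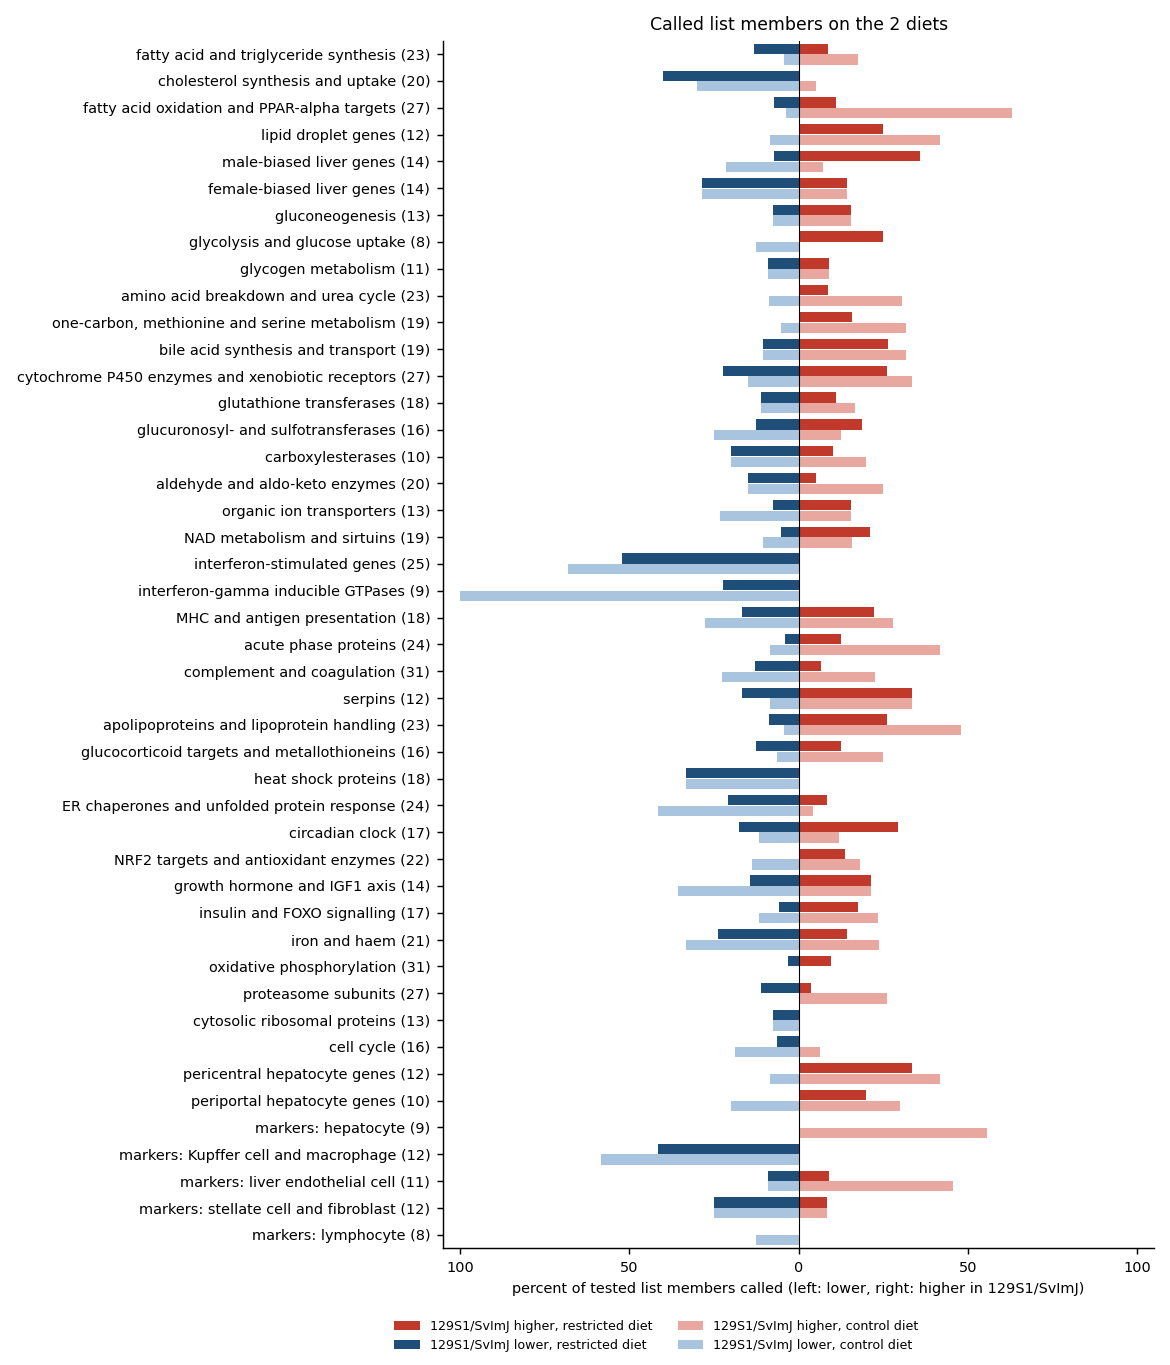
Percent of the tested members of each gene list called higher (right) or lower (left) in 129S1/SvImJ on the restricted diet (dark) and the control diet (pale), for lists with 8 or more tested genes. Over all genes 8.87% were higher and 8.25% lower on the restricted diet. The interferon lists extend to the left on both diets, and the fatty acid oxidation list extends to the right mainly on the control diet.

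Genes with several probe sets limit how a direction can be read. Of 6249 such genes, 585 had more than 1 called probe set on the restricted diet, and in 72 of these (12.3%) the calls went in opposite directions. The part of strain sequence differences under the probes in these gaps was not tested.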

How the data were processed

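Liver RNA of 64 male mice, 8 in each of 8 combinations of strain and diet, was read from single-colour Affymetrix Mouse 430 2.0 arrays. Groups came from the sample titles, and 32 columns of CBA/J and B6C3F1/J were not used. Each deposited value is a MAS5 signal, that is a linear intensity, which the authors made from biotinylated cRNA. MAS5 is named per the submitters' processing notes, with its version not given in the sources used here. The values show scaling to a trimmed mean of about 500.

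Signals were turned into log2 in R 4.3.3. Of 45101 probe sets, 64 controls were left out, 34958 had 1 gene symbol, 932 several and 9211 none, and 34754 were matched by gene ID to the RefSeq table. Probe sets at or above the array median in at least 8 of 64 arrays were kept (24626), and the brightest stood for its gene, giving 13630 genes. No 2 arrays held identical values, and the highest correlation was 0.959.

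Group means were fitted with limma 3.58.1 (trend and robust variances) on all 64 arrays, with Benjamini-Hochberg adjustment over the 13630 genes. The fit was tested on simulated data. The labels do not say that mice of a group came from separate litters or shipments, so p-values measure the spread between these mice, and the number of arrays limits the precision. Array measures were compared by exact permutation in Python 3.11.15.

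Named genes were the 12 widest gaps in each direction with no overlap and at least the mean array median on the higher side, the 10 largest restricted-only changes in each direction at that level, the 5 opposite gaps with the smallest p, up to 3 called members of each list by p, and Nnt. Further genes are said to be so where they were chosen after their values were seen; other called list members are given to account for a list's count. The comparison and the 51 gene lists were chosen with earlier results of these data known, so no list is independent evidence. The alternatives changed the normalization, offset, filter, probe set rule, variance model, arrays and strains, and added a replicate block. Leaving out DBA/2J restricted replicate 6 in the counts of genes with no overlap, list members and array measures was added after seeing the data. Some items are not reported here. Promoter windows are those of the RefSeq table (GRCm38.p6).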

Additional observations from a re-analysis of the deposited data

Results flagged for a closer look

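Among the 8 restricted DBA/2J arrays, replicate 6 lay far from the others in array median (8.295) and in the 3' minus 5' log2 signal of Gapdh (2.51) and beta-actin (4.86). Its log2 signals of Map2k6 (4.96), Dct (11.36), Amacr (12.09), Ech1 (11.32) and Gpd1l (9.33) also stood apart from the other 7 mice. In 129S1/SvImJ, single mice stood apart for Gpatch11 (replicate 1, 8.01), Ankrd33b (replicate 4, 4.40), B3galt1 (replicate 1, 6.11) and Nnt (replicate 5, 12.05). In C57BL6/J the single values were those of Gdpd3 (replicate 2, 2.19), BC018473 (replicate 7, 5.20), Kdm2b (replicate 2, 6.95), Dct (replicate 6, 8.80), Fabp2 (replicate 2, 14.14), Abca8a (replicate 2, 11.53) and Nnt (replicate 2, 10.14). In C3H/HeJ they were those of Igsf23 (replicate 5, 9.13), Amacr (replicate 4, 13.27) and Serpinb1a (replicate 4, 5.81). These are 22 of 188 groups looked at (11.7%), and the criterion used, Dixon's 95% critical value for the gap of an extreme value over the range, by its construction marks about 1 in 20 groups by chance.

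The gap between 129S1/SvImJ and the other strains differed between the diets, by the test of the difference itself, in the genes named for it. The difference, restricted minus control, was 1.55 for Acvr2b, 0.93 for Tap1, 0.85 for Bco1, 0.59 for Stard5, -3.40 for Cyp2b13, -2.37 for Serpinb1a, -1.45 for Wnt5b, -1.36 for Gfod2, -1.28 for Pdzk1ip1, -1.16 for Csrp3, -1.06 for Slc25a33, -0.99 for Ech1, -0.95 for Gtf2e1 and -0.88 for Fabp2. For the genes with opposite gaps it was 0.75 for Gpd1l, 0.83 for C8a, 0.74 for Tef, 1.13 for Abca8a and -0.90 for Adck5.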

How the results depend on the processing

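With all 64 arrays, 1209 genes were higher and 1125 lower in restricted 129S1/SvImJ, the difference of gaps was called in 85 and 18 were restricted-only. Numbers of calls moved by more than 1.5 times in these settings, where the cause was not tested. Without DBA/2J restricted replicate 6 there were 185 differences and 46 restricted-only genes, with 1585 higher and 1438 lower. Array weights gave 1849 higher, 1739 lower, 241 differences and 59 restricted-only genes. The array median as a covariate gave 1910 higher, 148 differences and 34 restricted-only genes. Leaving out the DBA/2J groups gave 2397 higher, 2016 lower, 201 and 57, and leaving out the C3H/HeJ groups gave 54 and 8. A fit of all 12 groups gave 50 and 10, and centring on the 75th percentile 49 and 11. The share of higher genes among restricted calls, 51.8%, was 45.6% after quantile normalization, 43.6% with that centring, 58.5% with the mean of probe sets and 61.4% with the covariate. Reversed values were those of H2-D1 (-0.53), Reln (-0.15), Slc11a2 (0.07) and Xaf1 (0.45) with the mean of probe sets, and of Gpd1l (-0.04) without the DBA/2J groups. Of 154 named gaps, 90 kept their direction and call in every alternative that measured them, as did 3 of 19 named gap changes. Same-numbered restricted mice of different strains deviated with a correlation of -0.14 to 0.12 (median 0.01, 48 pairs). For mice of different number it was -0.29 to 0.27 (median 0, 336 pairs), and 6 of 32 arrays were closest to their own number. Correlations across all genes cannot exclude an effect shared by some replicate numbers in some genes. The replicate block gave 1303 higher, 1217 lower, 102 differences and 23 restricted-only genes. Weak signal limits what can be read: below the array median of 6.65 a fold change has no firm size.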
